A study of Drosophila melanogaster with 4 samples.

Results

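The aminoacyl-tRNA synthetase genes were taken from the deposited expression table by symbol, as every gene named by 1 or 2 amino acid codes followed by RS, with or without the ending -m. The rule found 32 of the 17490 genes in the table. Of these, 14 carry the -m that marks the mitochondrial enzymes, and the 18 without it are called cytoplasmic here. All 32 had a mean of 0.1 FPKM or more and were among the 8823 genes that entered the test. Aminoacyl-tRNA synthetases join each amino acid to its tRNAs, which is the step that fixes the genetic code in protein synthesis. Most amino acids are served by separate nuclear genes for the cytoplasm and for the mitochondrion, and in mammals several cytoplasmic enzymes sit together in the multisynthetase complex. The 2 structural classes of the family, class I and class II, differ in the fold of the catalytic domain.

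Ribosome-bound mRNAs were collected from Drosophila ovaries by translating ribosome affinity purification (TRAP), in which ribosomes tagged with GFP are pulled down with their mRNAs. The somatic follicle cells were tagged in tj:gal4, UAS RPL10-GFP females (soma, 2 libraries) and the germline in Nos:Gal4Vp16, UAS:RPL10-GFP females (germline, 2 libraries), and both groups therefore carried the RPL10-GFP transgene under the control of a Gal4 driver. The ovaries of many females of a genotype were pooled, the age of the flies is not given in the labels, and the lineage, the driver and the genotype cannot be told apart. The comparison asks which genes are ribosome-bound at a higher level in the soma or in the germline. The study calls the 2 libraries of a group biological replicates, and the p-values measure the spread between them. Within such a pull-down, fewer cells of a type and less bound mRNA per cell cannot be told apart.

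The libraries differed in depth. Soma replicate 1 held 18142020 reads over the genes whose reads could be recovered, against 2445604 to 3438170 in the other 3, and 6.22% of its reads were ribosomal RNA against 55.6% to 74.3%. Of the reads other than ribosomal RNA, the synthetase genes took 0.470% and 0.449% in the soma libraries, against 0.919% and 0.719% in the germline libraries. All 8 follicle cell markers (among them tj, Fas3 and Yp1) were higher in both soma libraries, and their sum in the germline was 10.2% of that in the soma. The 7 germline markers found (among them osk, nos and otu) were higher in both germline libraries, but their sum in the soma still reached 38.2% of that in the germline. The summed level of 7 muscle sheath markers was 3.90 and 19.3 FPKM in the soma and 16.0 and 1.57 FPKM in the germline, and the parts of ribosomal RNA, depth and muscle mRNA in the results were not tested.

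The synthetase genes were detected in the pull-downs of both lineages, and the cytoplasmic genes stood well above the mitochondrial ones. As germline markers kept 38.2% of their germline level in the soma libraries, a soma value does not by itself show binding in somatic cells. The soma mean of MetRS-m was 19.5% of its germline mean, below that share, but this mean rests partly on 1 read. MetRS-m stood at 1.60 FPKM in soma replicate 1 (296 reads) and at 0.188 FPKM in soma replicate 2 (1 read), against a germline mean of 4.58 FPKM. Levels are given as FPKM, which here are per length of all annotated exons of a gene, so they compare only roughly between genes. MetRS-m, for one, has 4314 exon bases and a longest coding sequence of 1746, against 3403 and 3066 for MetRS. The mean over the 4 libraries ranged from 7.58 to 85.7 FPKM for the cytoplasmic genes and from 2.12 to 17.9 FPKM for the mitochondrial genes, and AspRS was the only cytoplasmic gene under 24.0 FPKM. The cytoplasmic levels summed to 581 and 713 FPKM in soma replicates 1 and 2 and to 1140 and 783 FPKM in germline replicates 1 and 2. The mitochondrial levels summed to 73.2 and 72.7 FPKM in the soma and to 118 and 94.2 FPKM in the germline. Both sums were higher in each germline library than in each soma library. The cytoplasmic sum was 7.94 and 9.80 times the mitochondrial one in the soma and 9.66 and 8.32 times in the germline, and these ratios overlapped between the groups.

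**Figure D1:**
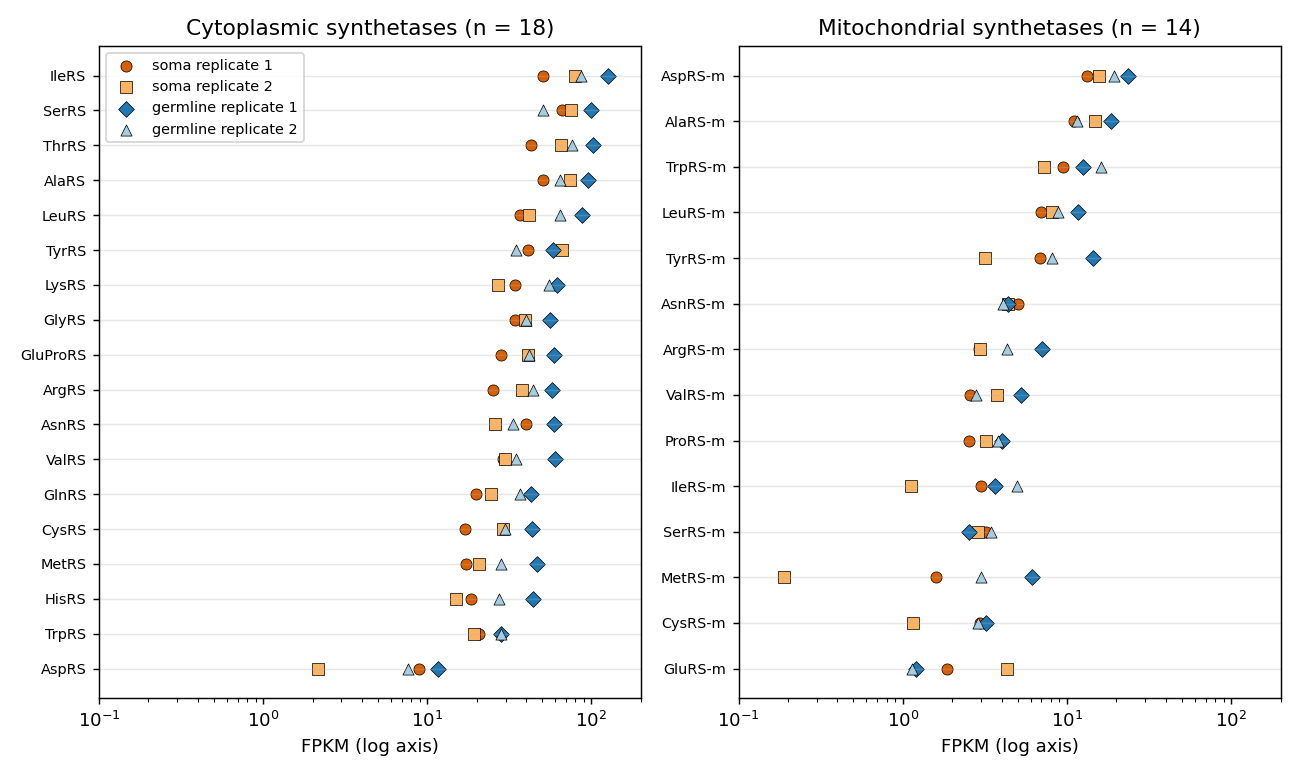
FPKM (log axis) of the 18 cytoplasmic and 14 mitochondrial synthetase genes in each of the 4 libraries, 1 symbol per library, ordered by mean. The cytoplasmic genes other than AspRS have means of 24.0 FPKM or more, while no mitochondrial gene has a mean over 17.9 FPKM, and most genes have their highest value in germline replicate 1.

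At the top of the cytoplasmic order, IleRS, which charges isoleucine, stood at 50.5 and 79.7 FPKM in the soma and at 126 and 86.4 FPKM in the germline, for a mean of 65.1 ± 20.6 and 106 ± 28.1 (SD, n = 2 libraries each, as throughout). SerRS, the serine enzyme, followed at 66.5 and 74.7 FPKM in the soma and at 99.2 and 50.7 FPKM in the germline, and ThrRS, the threonine enzyme, at 42.6 and 65.5 FPKM in the soma and 103 and 76.2 FPKM in the germline. SerRS had the highest mean of all members in the soma (70.6 ± 5.82 FPKM) and IleRS in the germline, and the ranges of these 3 genes overlapped in both groups, except that ThrRS lay just below SerRS in the soma. The lowest cytoplasmic genes were AspRS, TrpRS and HisRS, for aspartate, tryptophan and histidine.

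Among the mitochondrial genes, AspRS-m was the highest in all 4 libraries, at 13.3 and 15.6 FPKM in the soma and 23.5 and 19.3 FPKM in the germline. AlaRS-m stood at 11.1 and 14.8 FPKM in the soma and 18.5 and 11.5 FPKM in the germline, and TrpRS-m at 9.43 and 7.20 FPKM in the soma and 12.5 and 16.1 FPKM in the germline. The lowest means belonged to GluRS-m (2.12 FPKM), CysRS-m (2.56 FPKM) and MetRS-m (2.74 FPKM), which differed from each other by less than the spread between their libraries. The order of the members was much the same in both lineages: Spearman's rho between the soma and germline means was 0.946 over the 32 genes, 0.870 over the 18 cytoplasmic and 0.644 over the 14 mitochondrial ones. This is a description across genes that share the same 4 libraries.

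Most synthetase genes had a lower value in the soma than in the germline, but no single gene passed the adjusted test. The log2 fold change, soma minus germline on the log2(FPKM + 0.1) scale, was below 0 for 28 of the 32 members against 48.4% of all genes tested, and its median was −0.65 against 0.04 over all genes tested and −0.06 over the 3646 genes whose mean reached 10 FPKM. With limma and Benjamini-Hochberg adjustment over all 8823 genes, 0 members were higher in the germline (3.59% of all genes) and 0 in the soma (8.64% of all genes). At an unadjusted p under 0.05, 6 members were higher in the germline (11.0% of all genes) and 0 in the soma (16.8% of all genes). Of the 3646 genes whose mean reached 10 FPKM, 683 were higher in the germline and 710 in the soma at that p. In 21 members both germline libraries were above both soma libraries (25.8% of all genes), in 2 the reverse held (29.6% of all genes), and in 9 the groups overlapped. For the same 3646 genes these counts were 1248, 1094 and 1304. The 2 libraries a group allow no 2-sided exact permutation p below 0.33, so for a single gene the comparison rests on the fit across all genes. The 95% interval of the log2 fold change had a median width of 1.56 for the cytoplasmic and 2.50 for the mitochondrial genes. For scale, the soma means of the germline markers were 28.8% (AGO3) to 48.6% (bam) of their germline means. The germline means of the follicle cell markers were 3.07% (ct) to 12.2% (Inx2) of their soma means, so the 2 directions do not share a scale. The lowest soma share was 46.6% among cytoplasmic members (HisRS) and 19.5% among mitochondrial ones (MetRS-m, with 1 read in soma replicate 2). HisRS, TyrRS-m (44.5%) and IleRS-m (47.9%) lay within the range of the germline markers.

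The size of the shift depended on single libraries. The median of the members was −0.44 without soma replicate 1, −0.62 without soma replicate 2, −0.43 without germline replicate 1 and −0.84 without germline replicate 2. Germline replicate 1 was above germline replicate 2 for 28 of the 32 members, with a median log2 ratio of 0.49 against 0.10 over the genes whose mean reached 10 FPKM. Without germline replicate 1, 0 members had an unadjusted p under 0.05, against 4, 3 and 4 without soma replicate 1, soma replicate 2 and germline replicate 2.

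**Figure D2:**
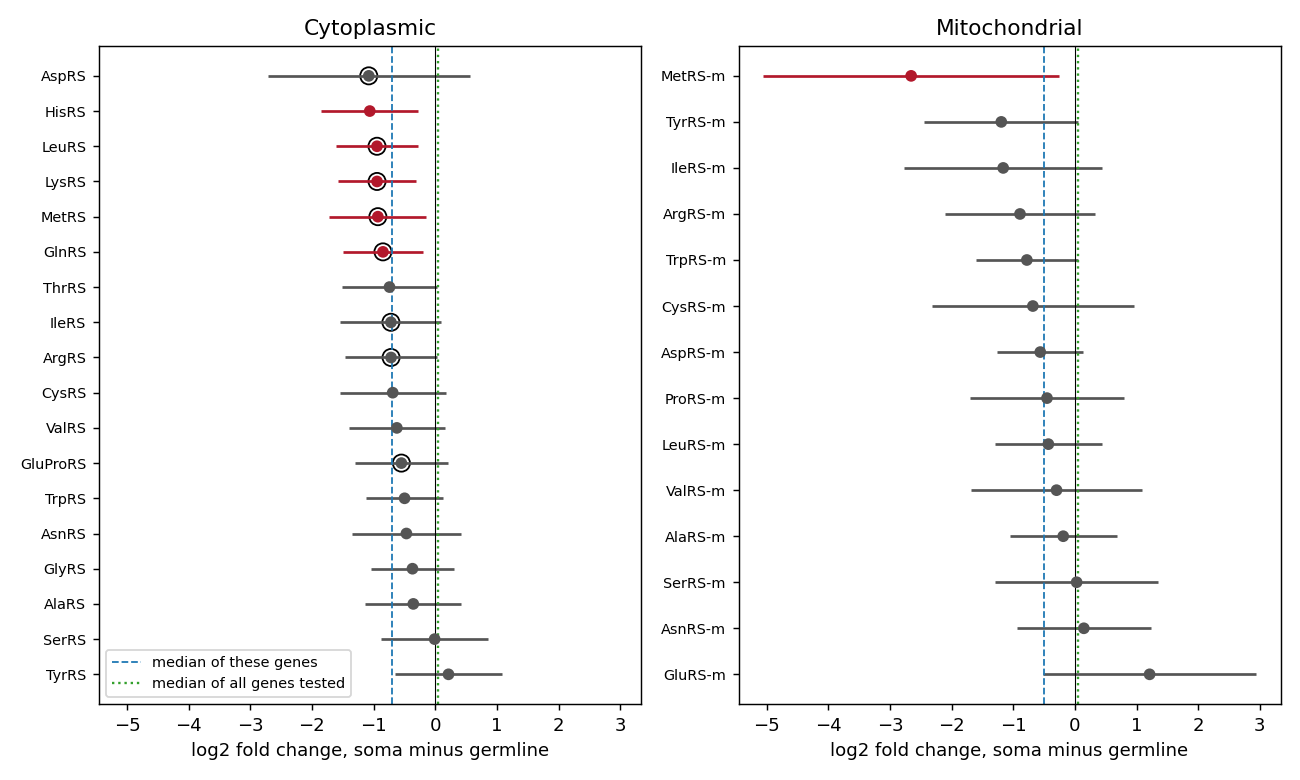
Log2 fold change, soma minus germline, with its 95% interval from limma for each cytoplasmic and mitochondrial synthetase gene. Red marks the 6 genes with an unadjusted p under 0.05, a black ring marks the 8 genes of the mammalian multisynthetase complex, the dashed line is the median of the genes in the panel (−0.70 and −0.51) and the dotted line is the median over all genes tested (0.04).

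Among the 18 cytoplasmic genes, 17 had a log2 fold change below 0, with a median of −0.70 and a range from −1.08 to 0.22. In 13 the germline libraries were both above the soma libraries, as in 25.8% of all genes and in 1248 of the 3646 genes whose mean reached 10 FPKM. The 5 with an unadjusted p under 0.05 (limma) charge histidine, leucine, lysine, methionine and glutamine. At that p, 11.0% of all genes and 683 of those 3646 genes were higher in the germline. HisRS (X chromosome, 18515428 to 18520445) stood at 18.4 and 15.0 FPKM in the soma and at 44.3 and 27.3 FPKM in the germline. Its germline mean was 2.14 times its soma mean, with a log2 fold change of −1.06 (95% interval −1.85 to −0.27, limma, adjusted p = 0.0875). LysRS (X chromosome, 9606363 to 9608884) stood at 34.4 and 26.8 FPKM in the soma and at 61.9 and 55.4 FPKM in the germline. Its libraries lay close together within each group and far apart between them, with a log2 fold change of −0.94 (−1.58 to −0.31, limma, adjusted p = 0.0681). LeuRS (2L, 3510328 to 3514656) stood at 36.6 and 41.6 FPKM in the soma and at 88.0 and 64.3 FPKM in the germline, with a log2 fold change of −0.94 (−1.61 to −0.28, limma, adjusted p = 0.0771).

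MetRS, which supplies both the initiator and the elongator tRNA of methionine, stood at 17.3 and 20.7 FPKM in the soma and at 46.6 and 28.0 FPKM in the germline. The 2 germline libraries differed from each other by more than germline replicate 2 differed from the soma, and the log2 fold change was −0.93 (−1.72 to −0.14, limma, adjusted p = 0.123). GlnRS stood at 19.9 and 24.4 FPKM in the soma and at 43.0 and 36.7 FPKM in the germline, with a log2 fold change of −0.85 (−1.49 to −0.20, limma, adjusted p = 0.0938). In each of these 5 genes the 2 groups did not overlap. ThrRS (−0.74), IleRS (−0.72), ArgRS (−0.72), CysRS (−0.69) and GlyRS (−0.37) also had both germline libraries above both soma libraries. The gap was narrow for CysRS (29.1 FPKM in soma replicate 2 and 29.6 FPKM in germline replicate 2) and GlyRS (39.2 and 40.2 FPKM in the same libraries). AsnRS (−0.47), with 39.8 and 26.0 FPKM in the soma and 59.3 and 33.3 FPKM in the germline, had overlapping groups.

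At the other end, TyrRS was the only cytoplasmic gene with a log2 fold change above 0. It stood at 41.4 and 65.9 FPKM in the soma and at 58.2 and 34.7 FPKM in the germline, so that the groups overlapped, and the log2 fold change was 0.22 (−0.66 to 1.09, limma, adjusted p = 0.729). Its sign turned to −0.12 without soma replicate 2 and to −0.16 without germline replicate 2. SerRS had a log2 fold change of −0.01 (−0.88 to 0.86), and AlaRS, the alanine enzyme, one of −0.36, with 50.6 and 74.0 FPKM in the soma and 94.98 and 64.5 FPKM in the germline. The intervals of SerRS and AlaRS held the median of the cytoplasmic genes, −0.70, and that of TyrRS ended just above it.

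AspRS had the lowest log2 fold change of the cytoplasmic genes, −1.08, but also the widest spread. It stood at 8.96 and 2.15 FPKM in the soma and at 11.6 and 7.67 FPKM in the germline, and the groups overlapped (95% interval −2.72 to 0.56, limma, adjusted p = 0.368). The value in soma replicate 2 came from 6 reads, whose exact Poisson interval of 0.788 to 4.67 FPKM covers counting error only. Without that library the log2 fold change was −0.07.

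The cytoplasmic genes were also grouped by the mammalian multisynthetase complex. The 8 genes whose mammalian counterparts belong to it (GluProRS, IleRS, LeuRS, MetRS, GlnRS, LysRS, ArgRS and AspRS) all had a log2 fold change below 0, with a median of −0.89 and a range from −1.08 to −0.55. Of these 8, 4 had an unadjusted p under 0.05 (limma). At that p, 11.0% of all genes and 683 of the 3646 genes whose mean reached 10 FPKM were higher in the germline. The 10 other cytoplasmic genes had a median of −0.48 and a range from −1.06 to 0.22 that overlapped that of the 8, 9 of them were below 0, and 1 (HisRS) had an unadjusted p under 0.05. The lower end of the 8 was AspRS, with its 6 reads in soma replicate 2, and the difference between the 2 sets was not tested. The summed level of the 8 was 221 and 274 FPKM in the soma and 494 and 364 FPKM in the germline. That of the 10 others was 360 and 439 FPKM in the soma and 646 and 419 FPKM in the germline, where the groups overlapped. The 8 genes thus stood at 0.613 and 0.625 of the level of the others in the soma and at 0.764 and 0.869 in the germline, and the groups did not overlap, which 2 libraries against 2 cannot place below an exact 2-sided p of 0.33.

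**Figure D3:**
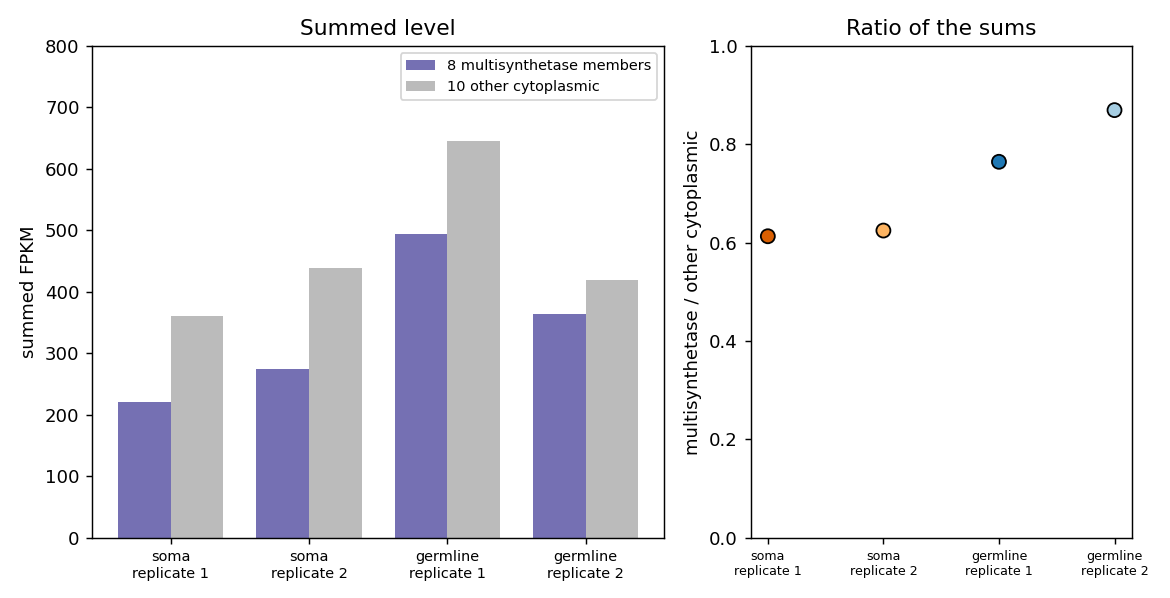
Summed FPKM of the 8 cytoplasmic synthetase genes of the mammalian multisynthetase complex and of the 10 other cytoplasmic genes in each library (left), and the ratio of the 2 sums (right). Soma replicates 1 and 2 have ratios of 0.613 and 0.625, below those of germline replicates 1 and 2 at 0.764 and 0.869.

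The 2 structural classes lay closer together in the cytoplasm. The 9 class I genes had a median log2 fold change of −0.72 and the 8 class II genes one of −0.60, with the double enzyme GluProRS in neither. Among the mitochondrial genes the 9 of class I had a median of −0.78 and the 5 of class II one of −0.19. The 5 cytoplasmic genes with no -m gene among the members (ThrRS, LysRS, HisRS, GlyRS and GlnRS) had a median of −0.85. In all 5 the germline libraries were both above the soma libraries (25.8% of all genes). In mammals 1 gene each serves both compartments for glycine and for lysine. The symbols do not tell whether some of these 5 fly genes serve both as well.

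The 14 mitochondrial genes had a median log2 fold change of −0.51, and 11 were below 0. The cytoplasmic median minus the mitochondrial one was −0.20, and it was −0.056 without germline replicate 1. In 8 the germline libraries were both above the soma libraries (25.8% of all genes) and in 2, AsnRS-m and GluRS-m, the reverse held (29.6% of all genes). MetRS-m (3R, 14249043 to 14259991), whose product charges the mitochondrial methionine tRNA, was the 1 member over 5-fold with an unadjusted p under 0.05, higher in the germline (1.08% of all genes), and no member was so in the soma (9.41% of all genes). It stood at 1.60 and 0.188 FPKM in the soma and at 6.15 and 3.005 FPKM in the germline. Both soma libraries were below both germline libraries, with a log2 fold change of −2.66 (−5.05 to −0.26, limma, adjusted p = 0.142). The value of 0.188 FPKM was a single read, with an exact Poisson interval of 0.00476 to 1.05 FPKM, while the deeper soma replicate 1 held 296 reads. Without soma replicate 2 the log2 fold change was −1.38 and the 5-fold call was lost, and it was also lost without either germline replicate.

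TyrRS-m and IleRS-m, for tyrosine and isoleucine, came next. TyrRS-m stood at 6.82 and 3.16 FPKM in the soma and at 14.4 and 8.06 FPKM in the germline, with a log2 fold change of −1.19 (−2.44 to 0.06, limma, adjusted p = 0.198). IleRS-m stood at 2.99 and 1.12 FPKM in the soma and at 3.64 and 4.94 FPKM in the germline, with a log2 fold change of −1.16 (−2.77 to 0.44, limma, adjusted p = 0.320). Neither pair of groups overlapped, but soma replicate 2 held 6 reads for TyrRS-m and 4 for IleRS-m, and without it the log2 fold changes were −0.65 and −0.49. The germline libraries were also both above the soma libraries for ArgRS-m (log2 fold change −0.89), AspRS-m (−0.56) and LeuRS-m (−0.43), and the groups overlapped for CysRS-m (−0.68, and −0.035 without soma replicate 2) and AlaRS-m (−0.19).

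The mitochondrial genes with values above 0 were GluRS-m, AsnRS-m and SerRS-m. GluRS-m (3L, 16415292 to 16417177) charges glutamate and, as in bacteria, also loads glutamate onto the glutamine tRNA for later conversion. It stood at 1.86 and 4.29 FPKM in the soma and at 1.20 and 1.14 FPKM in the germline. The groups did not overlap, and the log2 fold change was 1.21 (−0.51 to 2.94, limma, adjusted p = 0.337), from 9 reads in soma replicate 2 and from 6 and 7 in the germline. It was 1.79 without soma replicate 1, 0.63 without soma replicate 2 and 0.48 under quantile normalization. Of its exon bases, 5.59% are shared with Serinc on the opposite strand, which stood at 49.2 and 39.0 FPKM in the soma and at 15.0 and 10.9 FPKM in the germline, and the part of that overlap in the result was not tested. AsnRS-m was at 5.02 and 4.38 FPKM in the soma and at 4.36 and 4.09 FPKM in the germline, so the groups were apart only narrowly. SerRS-m was at 3.20 and 2.86 FPKM in the soma and at 2.53 and 3.46 FPKM in the germline, with a log2 fold change of 0.03.

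For 14 pairs the cytoplasmic and the mitochondrial gene for the same amino acid could be set side by side, with GluProRS counted against both GluRS-m and ProRS-m. In 13 pairs the cytoplasmic gene was higher in all 4 libraries, by 1.75 to 110.3 times, and the median over the 14 pairs, taken on group means, was 10.7 among soma libraries against 9.96 among germline libraries. The ratio of 110.3 belonged to MetRS over MetRS-m in soma replicate 2, where MetRS-m had its single read, against 10.8, 7.57 and 9.33 in the other libraries. The tryptophan pair lay closest, at 2.18 and 2.68 in the soma and 2.25 and 1.75 in the germline. The mitochondrial gene had the lower log2 fold change in 5 of the 14 pairs.

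The aspartate pair was the exception, with the mitochondrial gene higher in every library. The ratio of AspRS to AspRS-m was 0.675 and 0.138 in the soma and 0.493 and 0.398 in the germline. On the annotation, AspRS lies at 2R, 12877004 to 12883168, and 63.9% of its exon bases are also exon of asRNA:CR45141 on the opposite strand, which is listed at 0 in all 4 libraries. Whether the counting used strand or dropped reads over shared bases is not given in the sources used here, so the level of AspRS is uncertain, and the part of the overlap in its low value was not tested. AspRS-m (2L, 16827078 to 16832093) shares 0.656% of its exon bases with another gene. In all, 16 of the 32 members share exon bases with another gene and 5 share over 10%, the other 4 being GluProRS (16.6%), CysRS-m (14.3%), SerRS-m (13.9%) and ArgRS-m (11.8%).

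**Figure D4:**
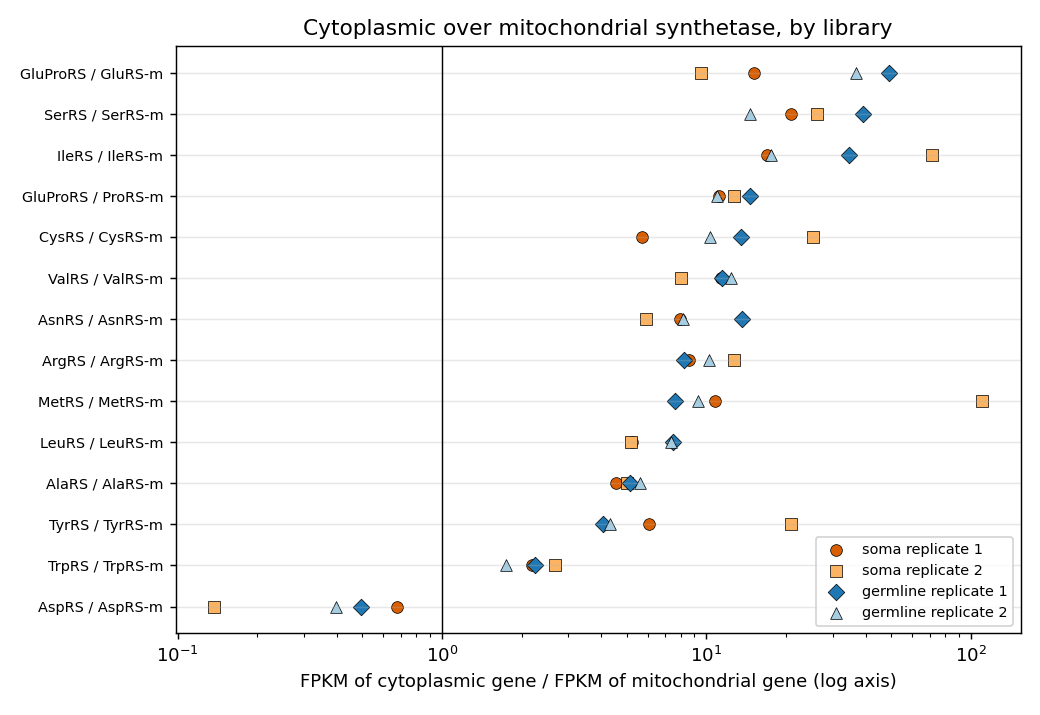
Ratio of the FPKM of the cytoplasmic gene to that of the mitochondrial gene (log axis) for the 14 pairs, 1 symbol per library, with a line at equal levels. The aspartate pair lies below the line in all 4 libraries (0.138 to 0.675) and the other 13 pairs lie above it.

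The ratio of the cytoplasmic to the mitochondrial gene did not overlap between the lineages in 7 of the 14 pairs. Such gaps are common with 2 libraries a group. Among the levels of all genes tested, 29.6% did not overlap with the soma higher and 25.8% with the germline higher. The count of pairs is thus no result about the synthetases. The ratio was lower in both soma libraries for glutamate, leucine, alanine, asparagine and valine, and higher in both for methionine and tyrosine. The margin was narrow for alanine (4.998 in soma replicate 2 and 5.13 in germline replicate 1) and valine (11.3 in soma replicate 1 and 11.4 in germline replicate 1). The ratio of GluProRS to GluRS-m was 15.1 and 9.53 in the soma and 49.0 and 36.8 in the germline. The ratio of TyrRS to TyrRS-m was 6.06 and 20.9 in the soma and 4.05 and 4.31 in the germline, and the value of 20.9 rested on 6 reads of TyrRS-m. The GluProRS to ProRS-m ratio, 11.2 and 12.8 in the soma and 14.6 and 11.0 in the germline, overlapped between the groups. TyrRS and GluRS-m, which had the highest log2 fold change of their compartments, are neighbours on 3L on the same strand with 171 bases between them.

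The synthetases of proline, tryptophan, valine and tyrosine were looked at as a group because the study discusses these amino acids. GluProRS, the double enzyme for glutamate and proline, stood at 28.1 and 40.9 FPKM in the soma and at 58.9 and 41.8 FPKM in the germline, with a log2 fold change of −0.55 (−1.30 to 0.20, limma, adjusted p = 0.318). TrpRS, whose libraries lay close together within each group, was at 20.6 and 19.3 FPKM in the soma and 28.1 and 28.2 FPKM in the germline, with a log2 fold change of −0.50 (−1.11 to 0.12, limma, adjusted p = 0.273). ValRS was at 29.1 and 29.95 FPKM in the soma and at 59.8 and 34.5 FPKM in the germline, with a log2 fold change of −0.62 (−1.40 to 0.16, limma, adjusted p = 0.277). These 3 genes were higher in both germline libraries (25.8% of all genes), GluProRS only narrowly, unlike TyrRS. Of their mitochondrial counterparts, TrpRS-m had a log2 fold change of −0.78, ProRS-m one of −0.45 and ValRS-m one of −0.30, the last with overlapping groups.

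Other genes of the pathway were set beside the members. The 3 scaffold proteins of the multisynthetase complex had log2 fold changes of −0.49 (AIMP1), 0.03 (AIMP2) and −0.43 (AIMP3), and none had an unadjusted p under 0.05. AIMP2 was at 31.0 and 19.7 FPKM in the soma and at 28.1 and 20.9 FPKM in the germline. The cytoplasmic elongation factors include the factor that carries charged tRNAs to the ribosome and the one that moves the ribosome on. Over the 5 tested, the median log2 fold change was −0.09, and none had an unadjusted p under 0.05. Their intervals were wide, from −2.88 to 2.70 for eEF1alpha1 (Ef1alpha48D in the table), and eEF1delta (−0.34) was higher in both germline libraries, at 188 and 226 FPKM in the soma and 268 and 254 FPKM in the germline. eEF2 (EF2 in the table), the translocation factor, stood at 894 and 1489 FPKM in the soma and at 1468 and 1049 FPKM in the germline. The 4 mitochondrial elongation factors tested had a median of −0.44, none with an unadjusted p under 0.05, and mEFG2 was not analysed here.

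In mitochondria, glutamine tRNA is first charged with glutamate and then converted by the GatCAB amidotransferase. GatB, a subunit of it, stood at 3.29 and 2.27 FPKM in the soma and at 10.1 and 8.03 FPKM in the germline. The groups were far apart, with a log2 fold change of −1.68 (−2.79 to −0.58, limma, adjusted p = 0.0625), on 5 reads in soma replicate 2. GatA had a log2 fold change of −0.42, and GatC was listed at 0 in all 4 libraries. Slimp, a fly paralogue of the mitochondrial seryl enzyme that does not charge tRNA, stood at 6.05 and 6.88 FPKM in the soma and at 3.33 and 3.06 FPKM in the germline, with a log2 fold change of 0.99 (−0.09 to 2.08, limma, adjusted p = 0.214). Its groups did not overlap, while those of SerRS-m did.

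Uncharged tRNA is sensed by the kinase Gcn2, and crc encodes the fly counterpart of ATF4, a transcription factor that in mammals is translated when the kinase is active and induces synthetase genes among others. Gcn2 stood at 7.42 and 5.08 FPKM in the soma and at 8.71 and 11.3 FPKM in the germline, with a log2 fold change of −0.68 (limma, adjusted p = 0.322). crc was the only gene of these lists to pass the adjusted test. It stood at 149 and 184 FPKM in the soma and at 41.2 and 37.3 FPKM in the germline, so that the soma mean was 4.25 times the germline mean, with a log2 fold change of 2.08 (1.44 to 2.72, limma, adjusted p = 0.00580). These values are of ribosome-bound crc mRNA, and neither its protein nor the activity of Gcn2 was measured here. In the study, a GFP reporter of ATF4 gave no germline signal, also when the flies lacked protein. Whether crc bears on the levels of the synthetase genes was not tested.

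**Figure D5:**
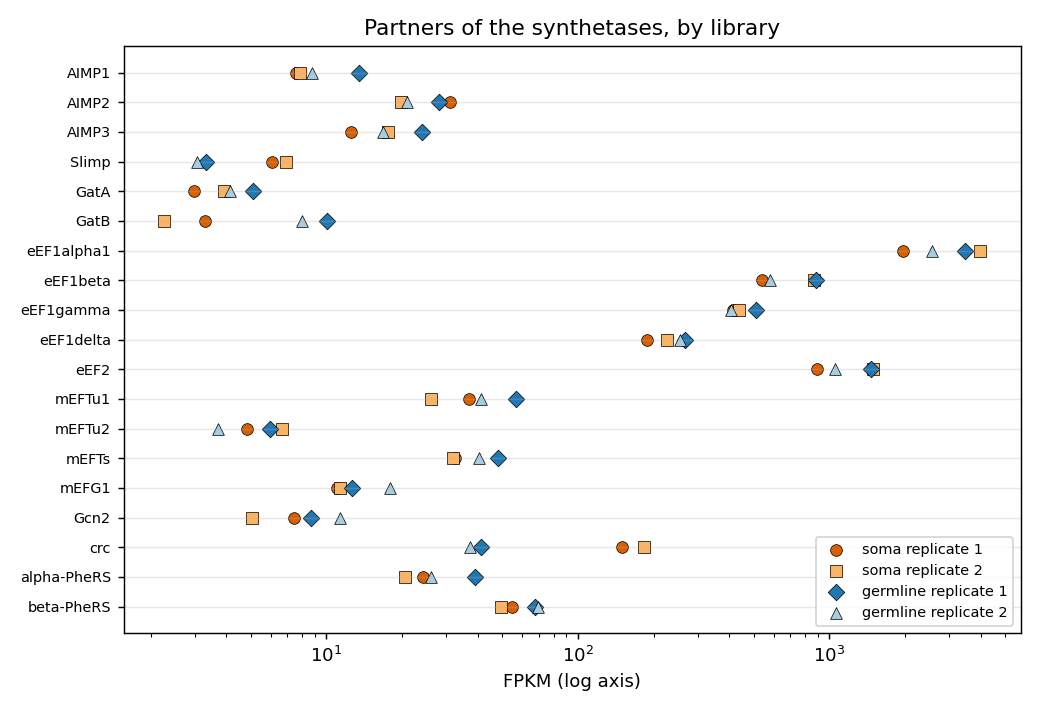
FPKM (log axis) of the pathway genes in each library, from the scaffolds of the multisynthetase complex to the 2 subunits of the phenylalanyl enzyme, 1 symbol per library. crc is higher in the soma (149 and 184 FPKM against 41.2 and 37.3 FPKM) and GatB in the germline (10.1 and 8.03 FPKM against 3.29 and 2.27 FPKM).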

How the data were processed

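TRAP libraries (Nugen Ovation kit) from ovaries were compared, 2 of the soma and 2 of the germline, grouped by the cell type label. The authors deposited FPKM values per gene with decimal commas, and, per the submitters' processing notes, cutadapt, FastQC, HISAT2, DESeq2 and the dm6 build were used. The annotation, counter and strand setting are not given in the sources used here. The table also holds columns of the authors' own comparison (fold changes and p-values), which were not used. The members and lists were chosen with earlier results of these data known.

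FPKM were tested as log2(FPKM + 0.1) with limma 3.58.1 (R 4.3.3, empirical Bayes with trend, 2-sided, no covariates) over the 8823 genes whose mean reached 0.1 FPKM, with Benjamini-Hochberg adjustment over all of them. The test was checked on simulated data. Reads were recovered from FPKM and exon lengths of Ensembl release 115 (BDGP6.54, dm6 coordinates): 10162 of 10518 genes above 0 (96.6%) came out whole within 0.03 reads, including all 32 members. At this depth 1 kb with 3 reads corresponds to 0.0699, 2.43, 1.02 and 0.827 FPKM in soma replicates 1 and 2 and germline replicates 1 and 2. Exact Poisson intervals cover counting error only.

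Named with full values were members past a call, the 3 highest and 3 lowest levels and the 3 largest log2 fold changes in each direction per compartment, the pairs, and the synthetases of proline, tryptophan, valine and tyrosine. The alternatives tried were other pseudocounts and filters, median ratio and quantile scaling, no trend, a replicate block, limma-voom on recovered reads, protein-coding genes alone, and leaving out each library.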

Additional observations from a re-analysis of the deposited data

How the results depend on the processing

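Over the 32 members and 14 settings, 395 of 448 recomputed log2 fold changes kept both their sign and their side of an unadjusted p of 0.05, whatever their size. Part of this was fixed in advance. The filters, the trend, the replicate block and protein-coding genes alone act on the p-value only, so no sign could turn there. Median ratio scaling divided all 4 libraries by the same factor, 1.02. Only the 6 members with an unadjusted p under 0.05 could lose it. With limma, the count of members with adjusted p under 0.05 in the germline, 0, became 1 under quantile normalization (LeuRS), 1 under the replicate block (HisRS) and 3 under limma-voom (LysRS, GlnRS and LeuRS), and in the soma it was 0 under every setting. The count with an unadjusted p under 0.05, 6, became 12 under quantile normalization, 10 under limma-voom and 0 without a trend, and ranged from 0 to 4 on leaving out 1 library. The 1 gene over 5-fold in the germline became 0 with a pseudocount of 1 FPKM, with all genes above 0, without a trend and under limma-voom, and ranged from 0 to 1 on leaving out 1 library. The median of the members, −0.65, ranged from −0.84 to −0.43 on leaving out 1 library. The cytoplasmic median minus the mitochondrial one, −0.20, became −0.073 under quantile normalization and −0.089 under limma-voom, and ranged from −0.29 to −0.056 on leaving out 1 library. The causes were not tested.

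Signs turned for genes near 0: under quantile normalization AsnRS-m (−0.021) and SerRS-m (−0.34), and under limma-voom SerRS (0.0077). On leaving out 1 library, AlaRS-m ranged from −0.53 to 0.15, SerRS from −0.49 to 0.48, SerRS-m from −0.19 to 0.25, TyrRS from −0.16 to 0.59 and ValRS-m from −0.74 to 0.14. Quantile normalization moved the median of all genes from 0.04 to −0.17, and the members' median lay 0.62 below it, against 0.70 below it in the scale as deposited. All genes above 0 moved that median to 0.17. Over all genes, the adjusted calls in the soma and the germline, 762 and 317, became 629 and 393 under quantile normalization, 921 and 653 under limma-voom and 451 and 37 without a trend, 0 and 0 without either germline library, 446 and 11 without soma replicate 1 and 564 and 6 without soma replicate 2. Where a group keeps 1 library, it is assumed to vary like the other group.

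Whether same-numbered libraries were prepared together is not given in the labels. The correlation of their deviations from the group means was −0.0656 over 8823 genes. With libraries of such unequal depth, this value cannot tell whether they shared a preparation. A replicate block cannot move a log2 fold change in this balanced layout, so the members' median stayed at −0.65. With the block, 7 members had an unadjusted p under 0.05, against 6 without it. The adjusted calls over all genes were 1549, against 1079 without it. Depth limited the mitochondrial genes most: 9 of the 14 mitochondrial members and 1 of the 18 cytoplasmic ones (AspRS) had 10 reads or fewer in soma replicate 2.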

Other observations

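The cytoplasmic phenylalanyl enzyme is built from 2 subunits whose symbols do not match the naming rule. alpha-PheRS stood at 24.2 and 20.5 FPKM in the soma and at 38.9 and 26.1 FPKM in the germline, with a log2 fold change of −0.51 (95% interval −1.24 to 0.21). beta-PheRS stood at 54.8 and 49.2 FPKM in the soma and at 67.5 and 69.2 FPKM in the germline, with a log2 fold change of −0.40 (−0.99 to 0.20). In both subunits the germline libraries were above the soma libraries, neither passed the adjusted test of limma (adjusted p = 0.334 and 0.364), and the level of beta was above that of alpha in all 4 libraries.

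The 2 libraries of a lineage differed from each other in a common direction for the cytoplasmic members: 17 of 18 were higher in germline replicate 1 than in germline replicate 2, and 13 of 18 were higher in soma replicate 2 than in soma replicate 1. The cytoplasmic elongation factor eEF1alpha1 (Ef1alpha48D in the table) had the same order, at 1956 and 3957 FPKM in the soma and at 3454 and 2552 FPKM in the germline. The muscle sheath markers were also highest in soma replicate 2 and germline replicate 1, and the part of either in these values was not tested.

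Hemocyte markers summed to 0.133 and 0.136 FPKM in the soma and to 0.0571 and 0 FPKM in the germline, and fat body markers to 0.657 and 2.41 FPKM in the soma and to 0.405 and 0.703 FPKM in the germline.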
